A study of Mus musculus with 6 samples.

Results

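The mRNAs of the enzymes that write and erase acetyl and methyl marks on histones were followed in C57BL/6 mice, in the nucleus accumbens (the ventral striatum, which serves reward learning). Genes were taken by name: symbols that begin with Hdac, Sirt, Kdm or Kat and go on with a digit, plus 16 named acetyltransferases and methyltransferases. This gave 53 genes, held in 56 of the 21540 records of the authors' deposited table. The cocaine group received 20 mg/kg cocaine by intraperitoneal injection on each of 7 days, the saline group is labelled as the saline control of that schedule, and both are labelled as 4 h into withdrawal. The labels list 3 RNA-seq libraries per group and give no age or sex, nor whether animals were pooled, so the spread behind the p-values may be technical. The table holds a single FPKM value per group (fragments per kilobase of transcript, scaled to the library total) with the authors' own log2 fold change, p and q, and no value per library. All values below come from the authors' deposited table unless a computation is named. No SD can be given, and the read depth is unknown.

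Histone deacetylases (HDACs) remove acetyl groups from lysines of histones and other proteins, and acetyltransferases such as CBP and p300 add them. Lysine methylation works by position: methyltransferases and demethylases of the KDM families set marks that accompany active genes at some lysines and silent genes at others. In mouse nucleus accumbens, HDAC5 and the H3K9 methyltransferase G9a (Ehmt2) are known for restraining the behavioural response to repeated cocaine.

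Of these 53 genes, 0 differed between cocaine and saline at q < 0.05 in the authors' deposited test (a Cuffdiff layout), against 1.43% of the 12825 tested genes of at least 1 FPKM, and 0 at q < 0.1, against 1.72%. At an unadjusted p under 0.05 there was 1 gene, against 6.52% of all tested genes. It was higher after cocaine, as were 2.30% of all tested genes, and 0 were lower, against 4.22%. That gene was Setd7, which encodes a methyltransferase of H3K4. A second and lower pair of values of Hdac4 also had p under 0.05. The counts run over 49 genes, since the test failed for Kdm4a, Setdb1 and Prmt6, and Kdm4d stood below 1 FPKM in both groups. The median log2 fold change of the 49 was -0.020, next to -0.021 over all tested genes. Of the 49, 31 lay within 0.1 of 0 (63.3%, against 66.5% of all tested genes) and 4 lay beyond 0.2 (8.16%, against 10.5%). The fold changes ran between 0.847 for Sirt7 and 1.18 for Kdm4b.

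The tissue label was checked against 12 spiny neuron markers, all of which were tested, such as Ppp1r1b (795 FPKM in the cocaine group and 829 FPKM in the saline group). Of these 12 markers, 10 lay below 0, with a median log2 fold change of -0.030. Of the 12825 tested genes of at least 1 FPKM, 7607 lay below 0, with a median of -0.021. At an unadjusted p under 0.05, 3 were lower, Ppp1r1b (the authors' p = 0.00508), Bcl11b (the authors' p = 0.0327) and Penk (the authors' p = 0.0346), against 4.22% of all tested genes. Of the 12, 0 passed q < 0.05, against 1.43% of all tested genes. Other transcripts moved with the groups. The 9 tested mitochondrially encoded mRNAs rose, and all such records together held 8.15% of summed FPKM in the cocaine group and 6.74% in the saline group. These shares leave out mt-Atp6, mt-Atp8, mt-Co1 and mt-Co3, which are marked HIDATA and listed at 0 in both groups. Of 12 endothelial markers 11 lay below 0, against the 7607 of 12825 tested genes given above. Of these markers 1, Cldn5, passed q < 0.05, against 1.43% of all tested genes. Their summed level was 44.9 FPKM after cocaine and 54.3 FPKM after saline. Of 8 choroid plexus markers, with 19.4 FPKM summed after cocaine and 9.49 FPKM after saline, Ttr rose (10.8 FPKM after cocaine and 0.668 FPKM after saline). The other 7 markers summed to 8.57 FPKM after cocaine and 8.82 FPKM after saline, and Clic6 (-0.18) and Kl (-0.041), the only others tested at 1 FPKM or more, lay below 0. Of 12 microglia markers 0 passed q < 0.05, with a median log2 fold change of 0.049. The part of these transcripts in the enzyme values was not tested. In such bulk tissue, fewer cells of a type and less RNA per cell cannot be told apart.

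The enzymes covered a wide range of levels. FPKM divides by transcript length, so levels can be set side by side between genes. Ehmt2 had the highest level with 110 FPKM in the cocaine group and 114 FPKM in the saline group, followed in the cocaine group by Hdac5 at 103 FPKM, Hdac11 at 101 FPKM and Kdm4b at 95.6 FPKM. In the saline group these stood at 106 FPKM (Hdac5), 103 FPKM (Hdac11) and 80.8 FPKM (Kdm4b). With Prmt1 and Sirt2, these 6 genes held 48.3% of the summed FPKM of the 53 after cocaine and 48.0% after saline. The sum itself was 1157 FPKM after cocaine and 1163 FPKM after saline, a log2 ratio of -0.0076. By mean level, 8 genes stood at 30 FPKM or more, 24 between 10 and 30, 12 between 5 and 10, and 9 below 5. Above the median level of all tested genes of at least 1 FPKM (11.5 FPKM) lay 30 of the 53. The lowest were Kdm4d (0.867 FPKM after cocaine and 0.788 FPKM after saline) and Suv39h2 (1.32 FPKM after cocaine and 1.48 FPKM after saline).

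**Figure D1:**
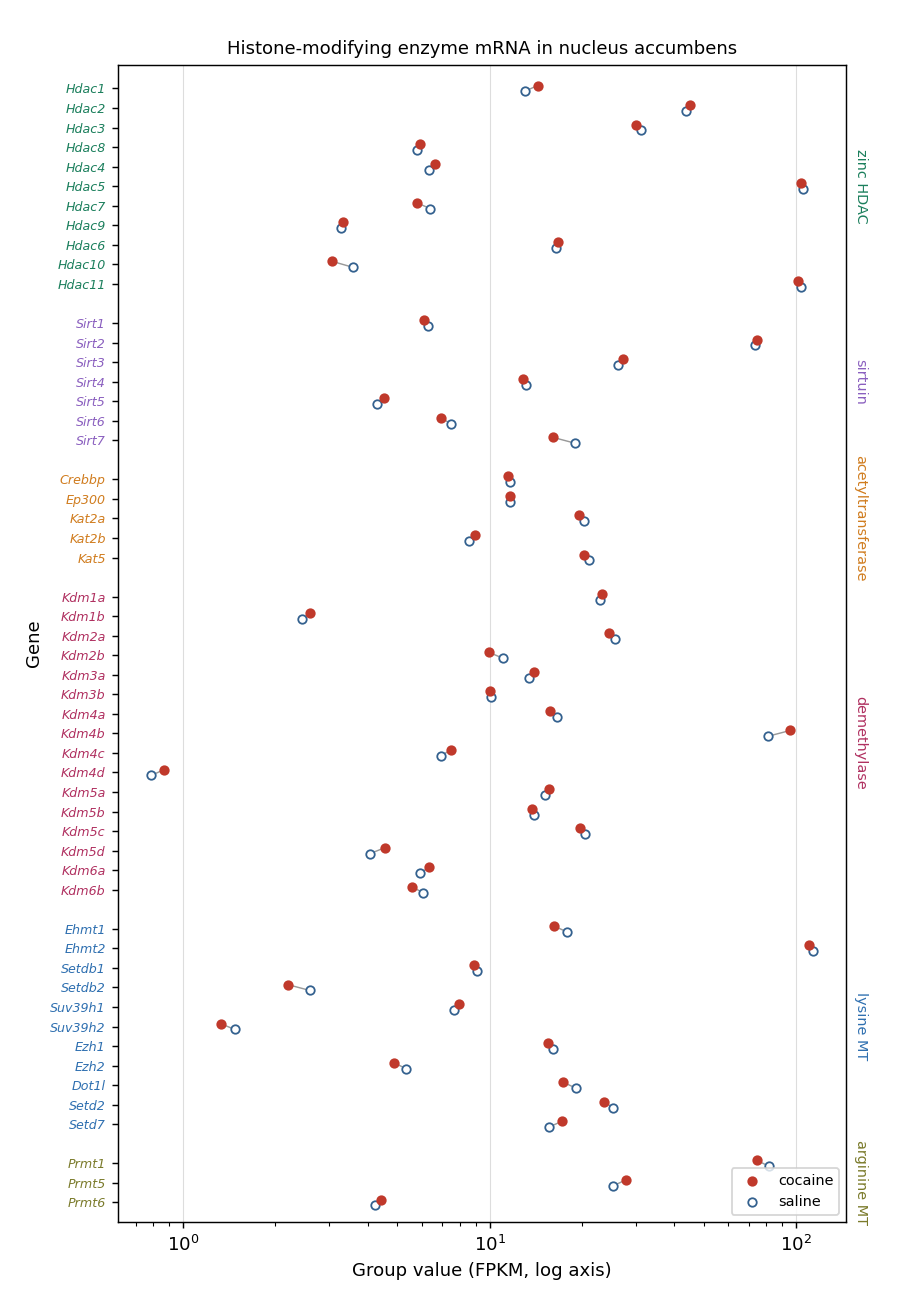
Group value in FPKM (log axis) of each of the 53 enzyme genes, cocaine as filled and saline as open circles, by enzyme family (MT, methyltransferase). The pairs lie close together over a range from 0.788 FPKM (Kdm4d, saline) to 114 FPKM (Ehmt2, saline).

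Class I HDACs are nuclear enzymes that work within corepressor complexes. Hdac2 led the class with 45.0 FPKM in cocaine and 43.8 FPKM in saline accumbens (log2 fold change 0.041, the authors' p = 0.610). Hdac3, the catalytic subunit of the NCoR and SMRT complexes, had 30.1 FPKM after cocaine and 31.2 FPKM after saline (-0.052, the authors' p = 0.335). Hdac1, a close relative of Hdac2, stood at 14.3 FPKM after cocaine and 13.0 FPKM after saline (0.14, the authors' p = 0.474). Its value is uncertain, because the table also lists its processed pseudogene Gm10093, which RefSeq names Hdac1-ps, at 3.61 FPKM after cocaine and 3.54 FPKM after saline, and reads could be divided between them. Hdac8 was at 5.94 FPKM after cocaine and 5.80 FPKM after saline. The summed level of the 4 genes was 95.4 FPKM after cocaine and 93.8 FPKM after saline.

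Class IIa HDACs move between cytoplasm and nucleus with phosphorylation and bind MEF2 factors. Hdac5 held 86.8% of the summed level of this class in both groups, at 103 FPKM after cocaine and 106 FPKM after saline (log2 fold change -0.030, the authors' p = 0.663). Hdac9 stood at 3.31 FPKM after cocaine and 3.27 FPKM after saline (0.019, the authors' p = 0.897). Hdac7, which is known for a role in endothelium, had 5.78 FPKM after cocaine and 6.41 FPKM after saline (-0.15, the authors' p = 0.364). It was lower beside the endothelial markers given above, whose part in its value was not tested.

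Hdac4 had 4 records in the authors' deposited table, made of 2 pairs of values, each listed under the same 2 gene identifiers. The higher pair was 6.61 FPKM after cocaine and 6.36 FPKM after saline (log2 fold change 0.055, the authors' p = 0.530), and this pair stands for Hdac4 in the counts. The lower pair was 6.29 FPKM after cocaine and 5.50 FPKM after saline (0.19, the authors' p = 0.0394, q = 0.999976). Both pairs were higher after cocaine, and neither passed after the authors' adjustment. If every record is counted, 3 records of these enzymes had an unadjusted p under 0.05, 2 of them this repeated Hdac4 pair. The table does not say what separates the pairs, so the Hdac4 value is uncertain.

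Of the other zinc-dependent HDACs, Hdac6, a cytoplasmic enzyme that deacetylates tubulin, had 16.7 FPKM after cocaine and 16.4 FPKM after saline (log2 fold change 0.022). Hdac10, known as a polyamine deacetylase, had 3.07 FPKM after cocaine and 3.58 FPKM after saline (-0.22, the authors' p = 0.391), among the 5 lowest log2 fold changes of the 49. Hdac11, the only class IV enzyme, stood at 101 FPKM after cocaine and 103 FPKM after saline (-0.034, the authors' p = 0.697). Over the 11 zinc-dependent genes the median log2 fold change was 0.019, with 6 above and 5 below 0, while 40.7% of all tested genes lay above 0.

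Sirtuins use NAD and work in the nucleus (Sirt1, Sirt6 and Sirt7), largely in the cytoplasm (Sirt2) or in mitochondria (Sirt3, Sirt4 and Sirt5). Sirt2, abundant in oligodendrocytes, had 74.2 FPKM in cocaine and 73.5 FPKM in saline accumbens (log2 fold change 0.013, the authors' p = 0.856), which is 50.1% of the summed sirtuin level after cocaine and 49.1% after saline. Sirt1, which deacetylates histones and transcription factors, had 6.10 FPKM after cocaine and 6.31 FPKM after saline (-0.049, the authors' p = 0.793). Sirt7, a nucleolar and chromatin enzyme, had 16.1 FPKM after cocaine and 19.0 FPKM after saline. Its log2 fold change of -0.24 (the authors' p = 0.133) was the lowest of the 49 genes, and it did not pass the test. The mitochondrial sirtuins gave 27.3 FPKM after cocaine and 26.2 FPKM after saline for Sirt3, 12.9 FPKM after cocaine and 13.1 FPKM after saline for Sirt4, and 4.53 FPKM after cocaine and 4.28 FPKM after saline for Sirt5. Sirt3 at 0.061, Sirt4 at -0.028 and Sirt5 at 0.080 on the log2 scale stood beside tested mitochondrially encoded mRNAs with a median of 0.33. Sirt6, which acts on H3K9 acetylation, had 6.93 FPKM after cocaine and 7.46 FPKM after saline (-0.11).

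The log2 fold changes of the 5 acetyltransferases taken by name all lay within 0.1 of 0, as did 66.5% of all tested genes. Of 9 acetyltransferase genes under other names, 7 did, and Myst2 (0.17) and Ncoa3 (-0.16) did not. Ep300 stood at 11.7 FPKM in both groups (log2 fold change 0.0021, the authors' p = 0.959), and Crebbp, which encodes CBP, the coactivator of CREB, at 11.5 FPKM after cocaine and 11.6 FPKM after saline (-0.018, the authors' p = 0.686). These paralogs stood at like levels. Kat2a had 19.6 FPKM after cocaine and 20.3 FPKM after saline, and Kat2b, its paralog, had 8.93 FPKM after cocaine and 8.59 FPKM after saline. Kat5, which encodes TIP60, had 20.3 FPKM after cocaine and 21.0 FPKM after saline. The log2 fold changes of these 3 genes lay between -0.056 and 0.056. Kat2b is uncertain to the extent that its annotated processed pseudogene could take reads.

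Among the demethylases, Kdm1a (LSD1, part of the CoREST complex) had 23.2 FPKM after cocaine and 22.8 FPKM after saline (log2 fold change 0.025, the authors' p = 0.785), and its relative Kdm1b had 2.60 FPKM after cocaine and 2.44 FPKM after saline. Kdm2a stood at 24.4 FPKM after cocaine and 25.6 FPKM after saline. Kdm2b, which recruits a Polycomb complex to CpG islands, stood at 9.94 FPKM after cocaine and 11.0 FPKM after saline (-0.15, the authors' p = 0.470). The H3K9 demethylases Kdm3a and Kdm3b lay at 0.053 and -0.0061 on the log2 scale. Kdm3a had 14.0 FPKM after cocaine and 13.5 FPKM after saline, and Kdm3b had 10.1 FPKM in both groups.

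Kdm4b, a demethylase of trimethylated H3K9, had the highest log2 fold change of the 49 genes, 0.24, with 95.6 FPKM after cocaine and 80.8 FPKM after saline. The authors' deposited p was 0.635, and the error that this p implies, given below, was the largest of the 49. Kdm4c (7.47 FPKM after cocaine and 6.92 FPKM after saline) was at 0.11 with the authors' p = 0.269. For Kdm4a, the authors' deposited table marks a failed test and lists a log2 fold change of 0, although its group values were 15.8 FPKM after cocaine and 16.6 FPKM after saline. These give a log2 ratio of -0.077, without a test.

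The KDM5 enzymes remove methyl groups from H3K4. Kdm5a, Kdm5b and the X-linked Kdm5c lay at 0.049, -0.020 and -0.055 on the log2 scale, and Kdm5c had 19.7 FPKM after cocaine and 20.5 FPKM after saline (the authors' p = 0.658). Kdm5a had 15.7 FPKM after cocaine and 15.1 FPKM after saline, and Kdm5b 13.7 FPKM after cocaine and 13.9 FPKM after saline. Kdm5d, the Y-linked relative of Kdm5c, had 4.55 FPKM after cocaine and 4.07 FPKM after saline (log2 fold change 0.16, the authors' p = 0.0531). Uty, another Y-linked gene and a relative of Kdm6a, stood at 4.57 FPKM after cocaine and 4.01 FPKM after saline (0.19, the authors' p = 0.421). Both groups thus held Y-linked transcripts, and the share of males in a group, which the labels do not give, cannot be told apart from a change in Kdm5d. Of the H3K27 demethylases, the X-linked Kdm6a had 6.34 FPKM after cocaine and 5.93 FPKM after saline (0.098), and Kdm6b, an inducible enzyme also called JMJD3, had 5.58 FPKM after cocaine and 6.06 FPKM after saline (-0.12, the authors' p = 0.356). Over 14 demethylases of at least 1 FPKM the median was 0.037, with 8 above and 6 below 0. All tested genes had a median of -0.021, with 40.7% above 0. Of the 14, 0 had p under 0.05, against 6.52% of all tested genes.

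Of the H3K9 methyltransferases, Ehmt2 (G9a) had 110 FPKM after cocaine and 114 FPKM after saline (log2 fold change -0.049, the authors' p = 0.513). Its partner Ehmt1 (GLP) had 16.2 FPKM after cocaine and 17.8 FPKM after saline (-0.14, the authors' p = 0.254). Suv39h1, which builds heterochromatin, stood at 7.93 FPKM after cocaine and 7.63 FPKM after saline (0.056, the authors' p = 0.578). Its paralog Suv39h2 (-0.16, the authors' p = 0.553) and Setdb2 (2.19 FPKM after cocaine and 2.59 FPKM after saline, -0.24, the authors' p = 0.595) were among the 5 lowest log2 fold changes, both at low levels. Setdb1, which silences retroelements with KAP1, had a failed test, with 8.91 FPKM after cocaine and 9.09 FPKM after saline, a log2 ratio of -0.028. Ehmt2 held 75.0% of the summed level of these 6 genes after cocaine and 74.6% after saline.

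The catalytic subunits of Polycomb repressive complex 2, which methylates H3K27, were Ezh1 (15.4 FPKM after cocaine and 16.1 FPKM after saline, log2 fold change -0.062) and Ezh2 (4.87 FPKM after cocaine and 5.33 FPKM after saline, -0.13, the authors' p = 0.641). Dot1l, the H3K79 methyltransferase, had 17.4 FPKM after cocaine and 19.1 FPKM after saline (-0.14, the authors' p = 0.101). Setd2, which trimethylates H3K36 behind elongating polymerase, had 23.7 FPKM after cocaine and 25.2 FPKM after saline (-0.093). Setd7 stood apart from them in sign, with 17.2 FPKM after cocaine and 15.6 FPKM after saline. Its log2 fold change was 0.14, a 1.105-fold difference, with a deposited p of 0.00132 and q of 0.108, so it did not pass q < 0.05. By that p it ranked 227 among the 14959 tested records.

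Over 10 lysine methyltransferases of at least 1 FPKM with a test, 8 lay below 0 and 2 above, with a median of -0.11. Only Setd7 and Suv39h1 were above. Of all tested genes 40.7% lay above 0. After the trend with GC content and length described below was removed, 7 of the 10 lay below 0, with a median of -0.11. None of the 8 below 0 had an unadjusted p under 0.05, the lowest being that of Dot1l, so no fall is shown for any of them.

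Of the arginine methyltransferases, Prmt1, the main asymmetric enzyme, had 74.7 FPKM after cocaine and 81.4 FPKM after saline (log2 fold change -0.13, the authors' p = 0.0605). Prmt5, the main symmetric enzyme, went the other way with 27.8 FPKM after cocaine and 25.3 FPKM after saline (0.13, the authors' p = 0.326). Prmt6, which methylates H3R2, had a failed test, with 4.43 FPKM after cocaine and 4.24 FPKM after saline, a log2 ratio of 0.063. The deposited q of every tested gene of the 53 other than Setd7 was 0.999976.

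**Figure D2:**
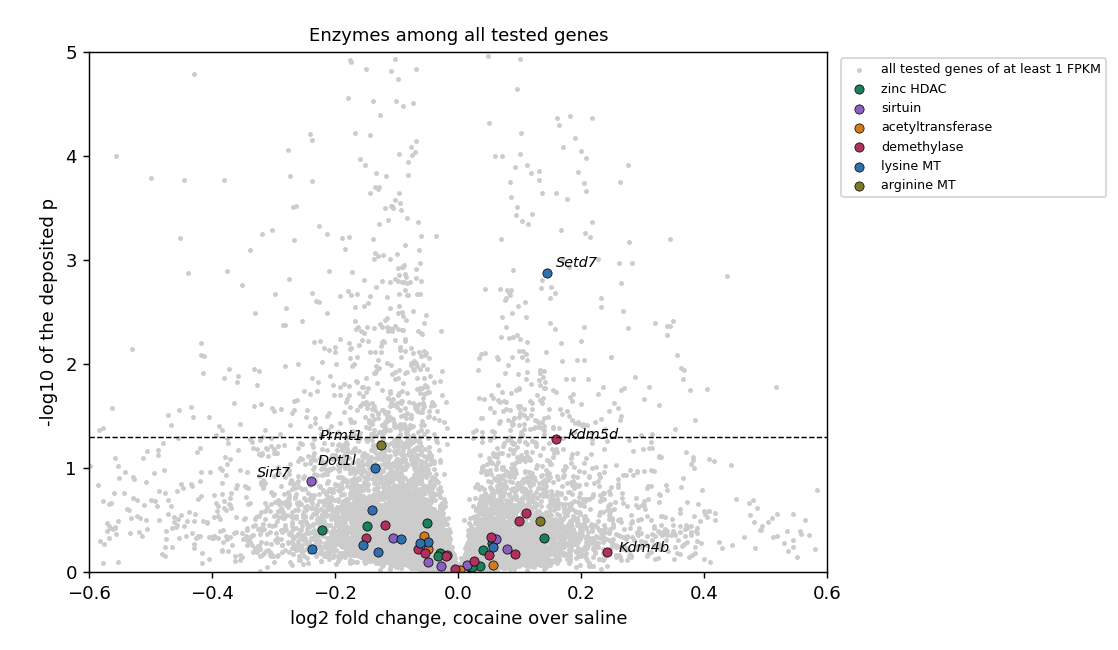
Log2 fold change, cocaine over saline, against -log10 of the deposited p for the 49 tested enzymes of at least 1 FPKM (coloured by family; MT, methyltransferase) among all tested genes of at least 1 FPKM (grey; 184 genes outside the axes or with a p listed as 0 are not drawn). The dashed line marks a p of 0.05; Setd7 alone lies above it, and Kdm5d (the authors' p = 0.0531) and Prmt1 (the authors' p = 0.0605) lie just under it.

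The precision of each value can be read from the deposited p only under an assumption. If p is the two-sided normal p of the log2 fold change, the size of the fold change and its p fix a standard error. Its median was 0.124 over the 49 genes and 0.122 over all tested genes of at least 1 FPKM. It was smallest for Ep300 (0.0415), Crebbp (0.0441) and Setd7 (0.0449) and largest for Kdm4b (0.511) and Setdb2 (0.449). The 95% interval was 0.056 to 0.23 for Setd7 and -0.76 to 1.24 for Kdm4b. For 11 genes the interval lay wholly within 0.2 of 0: Hdac2, Hdac3, Hdac5, Sirt2, Crebbp, Ep300, Kat2a, Kdm3a, Kdm3b, Kdm5b and Ehmt2. That of Hdac5 ran from -0.16 to 0.10 and that of Ehmt2 from -0.20 to 0.098. The spread behind p may be technical, so the intervals may not cover variation between animals, for these 11 as well. For the others larger changes are within the error, such as -0.42 to 0.32 for Sirt1, -0.68 to 0.42 for Ezh2 and -0.55 to 0.072 for Sirt7, so a missed threshold does not show that they were unchanged.

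**Figure D3:**
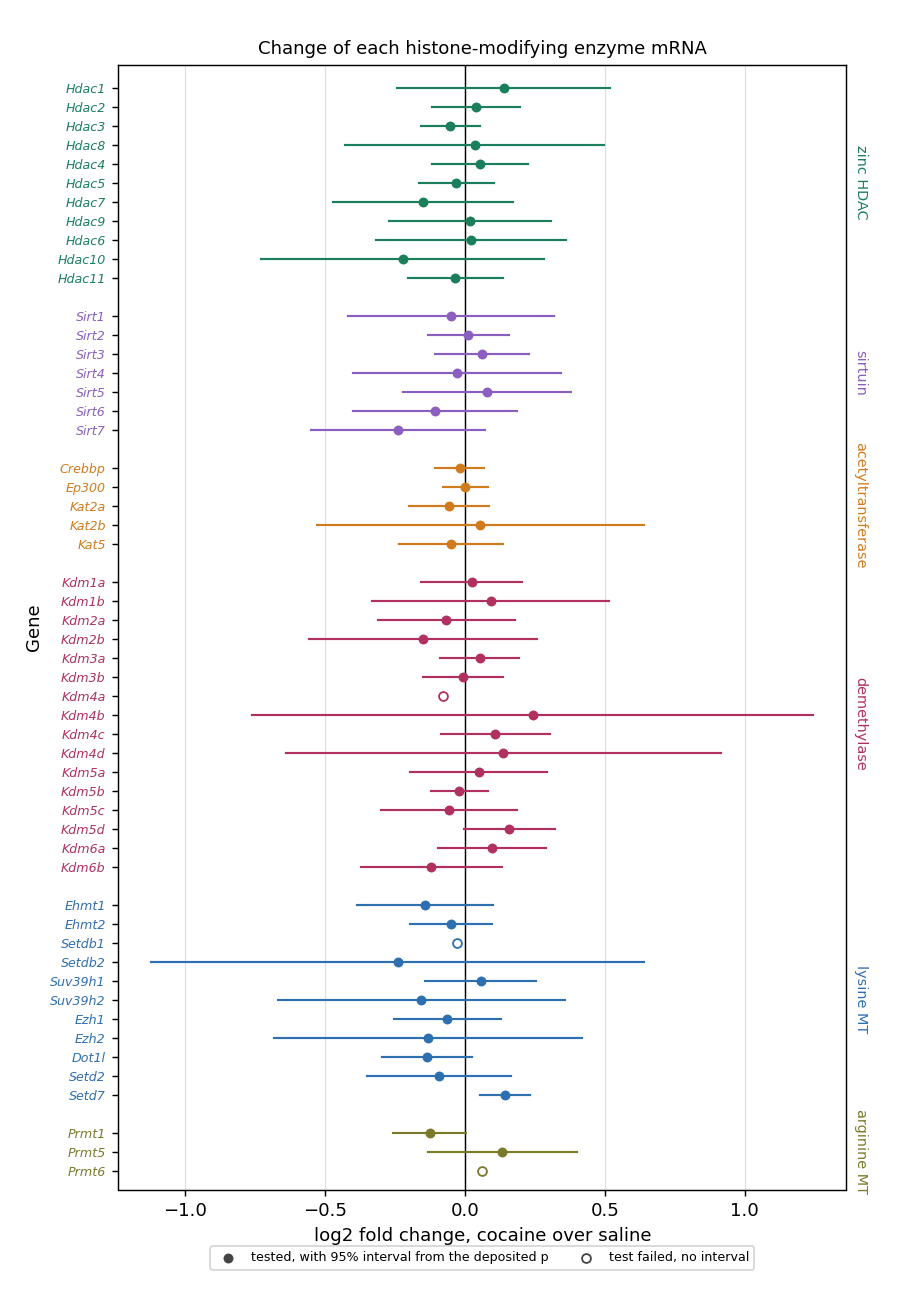
Log2 fold change, cocaine over saline, of each of the 53 enzyme genes; lines are 95% intervals computed from the deposited p as a two-sided normal p, and open circles are the 3 genes whose test failed. The interval of Setd7 (0.056 to 0.23) leaves out 0, and that of Kdm4b (-0.76 to 1.24) is the widest.

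Genes with GC-rich transcripts tended to lie lower after cocaine across the whole table, and so did these enzymes. For the 48 enzymes with an annotated longest transcript, Spearman's rho between log2 fold change and GC content was -0.31, against -0.30 over 12566 tested genes. With transcript length it was 0.0092, against 0.18. These are correlations across genes of the same libraries, and genes are not independent replicates. The 24 enzymes with a GC content below the median of 51.1% had a median log2 fold change of 0.045, with 16 above 0. All tested genes below 51.1% had a median of 0.0017. The 24 enzymes at or above 51.1%, among them Ehmt2, Hdac5 and Hdac11, had a median of -0.049, with 6 above 0. All tested genes at or above 51.1% had a median of -0.050. Of all tested genes, not split by GC content, 40.7% lay above 0. Their shares above 0 on each side of 51.1% are not given. The counts of 16 and 6 enzymes thus have no share of matched GC content beside them. Removal of the median of each GC and length cell left Setd7 at 0.11, Sirt7 at -0.18, Kdm4b at 0.28, Hdac5 at 0.014 and Ehmt2 at 0.019, the last 2 with the sign changed.

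**Figure D4:**
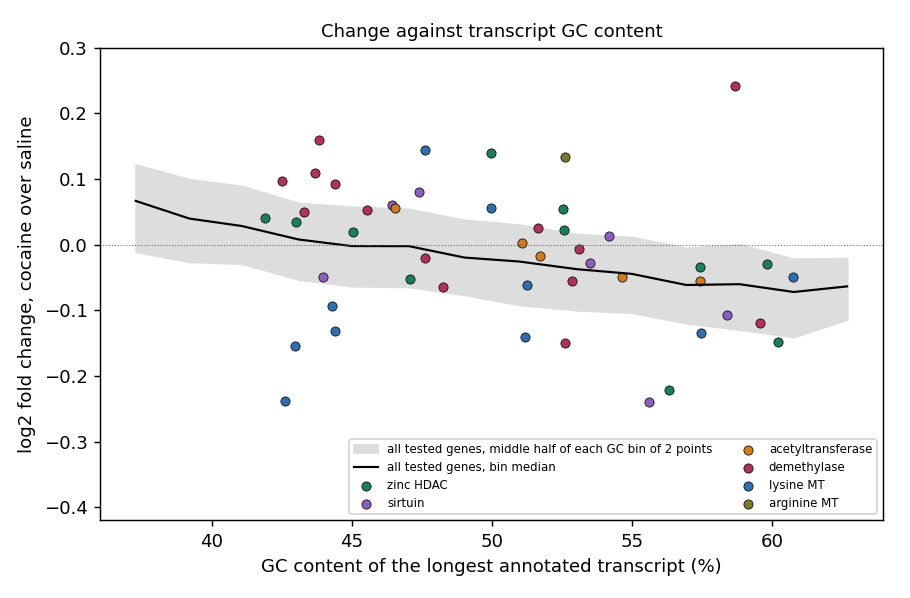
Log2 fold change, cocaine over saline, against GC content (%) of the longest annotated transcript for 48 enzymes (coloured by family; MT, methyltransferase); the line and band are the median and the middle part between quartiles of all tested genes per GC bin. Of the 22 enzymes above 0, 16 lie below the median GC content of 51.1%. The median of the 24 enzymes of higher GC content was -0.049, against -0.050 over all tested genes of that GC content.

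Genes of the same machinery that the names did not take were counted by older symbol and in 5 lists. The list counts leave out Ncor1, Jmjd1c and Setd5, whose tests failed, and Phf19, which stood below 1 FPKM in both groups. The table lists 7 enzymes under older symbols, among them the acetyltransferases Myst2 (now Kat7; 38.4 FPKM after cocaine and 34.1 FPKM after saline, log2 fold change 0.17, the authors' p = 0.313) and Myst1 (now Kat8; 8.63 FPKM after cocaine and 9.18 FPKM after saline, -0.090, the authors' p = 0.322), and Jmjd5 (now Kdm8; 2.57 FPKM after cocaine and 3.04 FPKM after saline, -0.24, the authors' p = 0.467). Of the 7, 0 had p under 0.05, against 6.52% of all tested genes. Of 20 corepressor and HDAC complex subunits 0 had p under 0.05, with a median of -0.030. The 8 subunits of Polycomb repressive complex 2 gave 0 with a median of 0.035, and 9 listed acetyltransferase genes 0 with a median of -0.0096. A list of 7 demethylases and related genes gave 0 with a median of 0.055. Of these, Jarid2, also counted in Polycomb repressive complex 2, and Riok1 are not known as demethylases. Myst1, Myst2, Myst3, Myst4 and Jhdm1d stand both among the 7 older symbols and in these lists, so they are not further genes. Among 22 other histone methyltransferases 2 were lower at an unadjusted p under 0.05, against 4.22% of all tested genes. Both, Prmt8 and Prmt2, were of the arginine family. Of that family in the same list, Prmt3 (-0.024, the authors' p = 0.909), Prmt7 (-0.13, the authors' p = 0.295) and Carm1 (0.027, the authors' p = 0.802) did not pass. Prmt8, a brain-enriched enzyme, had 35.6 FPKM after cocaine and 38.1 FPKM after saline (-0.099, the authors' p = 0.00321, q = 0.207), and Prmt2 had 30.6 FPKM after cocaine and 34.2 FPKM after saline (-0.16, the authors' p = 0.00483, q = 0.277). In all 5 lists, some of which share genes, 0 genes passed q < 0.05, against 1.43% of all tested genes.

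Overlapping transcription limits some values, since the strand setting of the counting is not given in the sources used here. In GENCODE mouse release 21 the exons of 10 of the 53 genes overlap those of another protein-coding gene. They include Kat5 with Rnaseh2c, Kdm2b with Rnf34, Sirt3 with Psmd13 and Ric8a, and Sirt7 with Mafg. Sirt7 shares 124 bases with Mafg on the same strand, and Mafg stood at 27.7 FPKM after cocaine and 27.8 FPKM after saline. With noncoding genes counted as well, 22 of the 53 have an exon overlap. The longest are on the opposite strand: Hdac4 with Gm26720 (3536 bases), Kdm3b with Gm26538 (3468 bases) and Prmt6 with C130013H08Rik (984 bases). Setd7 shares 131 bases with a noncoding transcript of the opposite strand, 5031434O11Rik. The part of these overlaps in the values was not tested.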

How the data were processed

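RNA-seq libraries of mouse nucleus accumbens (3 cocaine, 3 saline) were processed by the submitters with TopHat2 2.0.6 and Cufflinks 2.0.2 against NCBIM37, per the submitters' processing notes. The sources used here state neither settings nor annotation. The deposited table has the layout of a Cuffdiff gene table per the file headers. Its group values were taken as FPKM made by the authors, since the unit is not written in it. Deposited p-values and q-values were copied unchanged from the authors' test. The deposited log2 fold changes lay within 1.28e-05 of values recomputed from the group values, and for failed records, listed at 0, the recomputed value was used. The deposited q-values were above a Benjamini-Hochberg adjustment over the 14959 tested records for 1012 records (over 0.1% higher), and how they were adjusted is not given.

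For each symbol the tested record with the highest mean value was used, with a minimum of 1 FPKM in the higher group. Genes of other lists followed fixed names, and 1 list is not reported here. Members and lists were chosen with earlier results of these data known, so no list was tested as a set. Given in full were genes with an unadjusted p under 0.05, the 5 highest and 5 lowest log2 fold changes, and 20 enzymes chosen by name. The intervals from the deposited p and the records of Hdac4 were added after seeing the data. Transcript GC content and length were those of the longest isoform in GENCODE mouse release 21 (by Ensembl gene identifier), and its build (GRCm38) differs from the authors', so no coordinates are printed. The trend was the median of each of 10 GC by 10 length cells. Older symbols were matched through RefSeq (GRCm38.p6). Computations, tested on simulated data, used Python 3.11.15, pandas 2.3.3, numpy 2.4.6 and scipy 1.17.1.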

Additional observations from a re-analysis of the deposited data

How the results depend on the processing

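The count of 0 enzymes past the authors' deposited q was 0 as well without an FPKM minimum, at a minimum of 5 FPKM, at q < 0.1, with every record counted, and with Benjamini-Hochberg adjustment over the tested records of the table (Setd7 then at 0.0873); the last 2 were chosen after seeing the data. The count of 1 at an unadjusted p under 0.05 was 1 under both other minimums and 3 with every record counted, by the repeated Hdac4 pair. The median log2 fold change of -0.020 ran from -0.024 (minimum of 5 FPKM) to 0.014 (GC and length trend removed). It was 0.00078 when centred on all tested genes, so its sign depends on the setting. Of 29 enzymes given in full, 27 had an error from a deposited p (the tests of Setdb1 and Prmt6 failed). None of the 27 moved by more than that error under a pseudocount of 1 or the trend removal. A pseudocount only draws a value towards 0. Where the log2 fold change was already smaller than its error, that setting could not have moved it further. Centring subtracted -0.021 from every gene, and rescaling without the quantified mitochondrially encoded mRNAs added 0.00047. Both lie under the smallest error (0.0415), so neither could exceed it. Summed records changed only Hdac4, from 0.055 to 0.12, within its error. The sign changed for 3 under trend removal (Ehmt2, Hdac5 and Hdac9) and for Crebbp when centred. No value with summed records could be given for the counts, which need a p. No paired analysis was possible because the table holds pooled group values, and no library could be left out for the same reason. The depth is unknown, so no detection limit was computed.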
